A study of Mus musculus with 12 samples.

Results

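The SLAM (signalling lymphocytic activation molecule) family receptors were examined through 14 probe sets of 8 genes, out of 18193 measured genes and of 45037 probe sets on the array that are not controls. The members were the probe sets that the platform annotation gives to 1 of the symbols Slamf1, Slamf6, Slamf7, Slamf9, Cd48, Cd244, Cd84 and Ly9 and to no other gene. Slamf1 and Slamf6 had 3 probe sets each, Cd244 and Cd84 had 2 each, and the other genes had 1. Cd244 is listed under its current symbol Cd244a and was matched through its gene number. The rule for choosing the probe sets used no expression value. The 8 genes were listed with earlier results of these data known.

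RNA came from KSL cells, the fraction of mouse bone marrow that carries c-Kit and Sca-1, lacks lineage markers, and contains the stem cells of blood together with their earliest progeny. The 4 groups of 3 arrays were cells labelled Fancc-/- with TNF, cells labelled Fancc-/- without it, wild-type cells with TNF, and wild-type cells without it. All mice were 2 to 4 months old, and every culture lasted 24 h in medium that held 10% serum and the growth factors SCF, Flt3 ligand, IL-11 and IL-6. The treated cultures also received 10 ng/ml of TNF, the inflammatory cytokine tumour necrosis factor. The design asked how TNF changed expression, how the genotypes differed, and whether the TNF effect depended on genotype. The labels do not give the strain, the targeted allele, or whether the replicates are different animals. The p-values therefore reflect only the spread between these samples, which may be technical in part. Sex-linked transcripts, given below, differed widely within every group but the treated cells labelled Fancc-/-. Replicates in those groups were thus not all the same cells, but how many animals they stand for is not known.

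SLAM family receptors are immunoglobulin-type proteins on the surface of blood cells. Most of them bind a copy of themselves on a neighbouring cell, while CD244 binds CD48, which is held in the membrane by a lipid anchor and has no cytoplasmic tail. The tails of most others carry tyrosine motifs that recruit the small adaptor SAP, encoded by Sh2d1a, and through it the kinase FYN. In mouse bone marrow, CD150 (encoded by Slamf1), CD48, CD244 and CD229 (encoded by Ly9) are used to divide the KSL fraction into stem cells and multipotent progenitors, and stem cells are CD150-positive and negative for CD48 and CD244.

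Fancc, a gene of the Fanconi anaemia pathway of DNA repair, did not read lower in the groups labelled mutant. Its brightest probe set read 8.87, 9.12 and 8.95 with TNF and 9.16, 8.73 and 9.15 without TNF on the arrays labelled mutant (log2), against 8.40, 8.65 and 8.22 with TNF and 8.28, 8.22 and 8.49 without TNF on the wild-type arrays. The mean genotype difference was 0.62 (SE 0.10, limma adjusted p = 0.164). A probe set outside the disrupted part of the gene checks nothing, so genotype is given as labelled. The sex-linked transcripts Xist and Eif2s3y differed between replicates. Xist read 5.47 or less on wild-type replicates 1 and 2 and mutant-labelled replicate 1 without TNF and at least 12.04 on the other 9 arrays, and Eif2s3y read 3.79 on wild-type replicate 3 with TNF and 4.16 on mutant-labelled replicate 2 without TNF. Low Xist thus occurred on untreated arrays alone. Both transcripts were high on most arrays, and a fit with their levels as covariates is given beside the calls it ends. With 3 arrays in each group, precision is limited by their number.

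TNF lowered Cd244 and raised Slamf9. Averaged over both genotypes, 3 of the 14 member probe sets passed the test, both of Cd244 at a lower level and that of Slamf9 at a higher one, while 7.41% of all probe sets passed (limma, adjusted p under 0.05 over all probe sets). By direction, 3.61% of all probe sets were lower and 3.8% were higher. The median log2 difference was -0.08 over the 14 members and -0.03 over all probe sets. The other 11 member probe sets, which cover Slamf1, Slamf6, Slamf7, Cd48, Cd84 and Ly9, did not pass. In these bulk samples fewer cells of a type and less RNA per cell cannot be told apart. Of 11 granulocyte markers measured, 9 were lower with TNF as well, and their part in the Cd244 and Slamf9 differences was not tested.

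Cd244 encodes CD244 (2B4), the receptor for CD48. Its brighter probe set (1449991_at) read 9.94, 9.21 and 9.22 with TNF and 10.98, 10.79 and 10.55 without TNF on the arrays labelled mutant (log2). The wild-type arrays read 10.08, 9.63 and 9.58 with TNF and 10.93, 10.74 and 11.03 without TNF. All 6 treated arrays lay below all 6 untreated arrays. TNF changed it by -1.32 on the log2 scale for the arrays labelled mutant (SE 0.21, limma adjusted p = 0.00898) and by -1.14 for wild type (SE 0.21, adjusted p = 0.0175). Their mean was -1.23 (SE 0.15, 95% interval -1.55 to -0.90, adjusted p = 0.000645), a 2.34-fold lower signal, and this passed under all 22 alternatives.

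The second Cd244 probe set (1426120_a_at) also separated treated from untreated arrays. It read 7.23, 6.65 and 6.83 with TNF and 8.0, 7.68 and 8.19 without TNF on the arrays labelled mutant, against 7.10, 6.89 and 6.76 with TNF and 7.42, 8.17 and 7.95 without TNF in wild type. Again every treated array was below every untreated one. The log2 difference was -1.06 for the arrays labelled mutant (SE 0.21, limma adjusted p = 0.0311) and -0.93 for wild type (SE 0.21, adjusted p = 0.0488). The mean was -0.99 (SE 0.15, adjusted p = 0.00272), a 1.99-fold lower signal, and it was lost under 1 of 20 alternatives, a minimum change of 2-fold. Within one genotype the calls for Cd244 were less stable. Probe set 1449991_at did not pass in wild type without untreated replicate 3 (adjusted p = 0.0718) or treated replicate 2 or 3 (0.0567 and 0.0782). For 1426120_a_at, 9 of the 12 single-array omissions ended the wild-type call (adjusted p from 0.0534 to 0.169), all but those of untreated wild-type replicate 1 and treated mutant-labelled replicates 1 and 2. For the same probe set 4 omissions ended the call on the arrays labelled mutant, those of untreated replicates 1 and 3 and treated replicates 2 and 3 (from 0.0955 to 0.123). With Xist and Eif2s3y levels as covariates neither probe set passed within a genotype (adjusted p from 0.0656 to 0.179), with log2 differences between -1.34 and -0.92.

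Slamf9 encodes a family member with a short tail and no known SAP-binding motif. Its probe set (1419315_at) read 7.81, 7.11 and 7.93 with TNF and 6.73, 6.44 and 6.64 without TNF on the arrays labelled mutant (log2). The wild-type arrays read 7.50, 7.63 and 7.44 with TNF and 6.16, 5.57 and 6.46 without TNF. The lowest treated array was above the highest untreated one in both genotypes. In wild type the log2 difference was 1.46 (SE 0.24, limma adjusted p = 0.00955). On the arrays labelled mutant it was 1.01 and did not pass (SE 0.24, adjusted p = 0.0637), but it passed under 7 of 23 alternatives, among them without treated mutant-labelled replicate 2 (adjusted p = 0.0231) or untreated wild-type replicate 2 (0.0349). The mean over both genotypes was 1.24 (SE 0.17, 95% interval 0.86 to 1.61, adjusted p = 0.0015), a 2.36-fold higher signal, and this passed under all 22 alternatives. With the sex-linked covariates the wild-type difference was 1.35 and did not pass (adjusted p = 0.0976).

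Slamf7 encodes CRACC, a receptor that binds itself and is found on natural killer, plasma and activated myeloid cells. Its single probe set (1453472_a_at) was below the median of all values on every array. It read 5.33, 5.48 and 5.79 with TNF and 4.98, 5.05 and 4.94 without TNF on the arrays labelled mutant, against 5.01, 4.79 and 4.96 with TNF and 5.10, 5.10 and 4.98 without TNF in wild type. The 3 treated arrays labelled mutant were the highest of the 12, and the wild-type groups overlapped. Slamf7 passed for TNF on the arrays labelled mutant, with a log2 difference of 0.54 (SE 0.12, limma adjusted p = 0.0428), and did not pass in wild type, where it was -0.14 (SE 0.12, adjusted p = 0.644). The call on the arrays labelled mutant held under 7 of 22 alternatives. It was lost without any 1 of 9 arrays (adjusted p from 0.0532 to 0.14), all but untreated wild-type replicate 1, treated wild-type replicate 2 and treated mutant-labelled replicate 1. With the sex-linked covariates the difference was 0.60 and did not pass (adjusted p = 0.125). The mean over both genotypes was 0.20 (adjusted p = 0.19). The difference between the TNF effects was 0.68 (SE 0.17, unadjusted p = 0.00181) and did not pass over all probe sets (adjusted p = 0.9999).

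**Figure D1:**
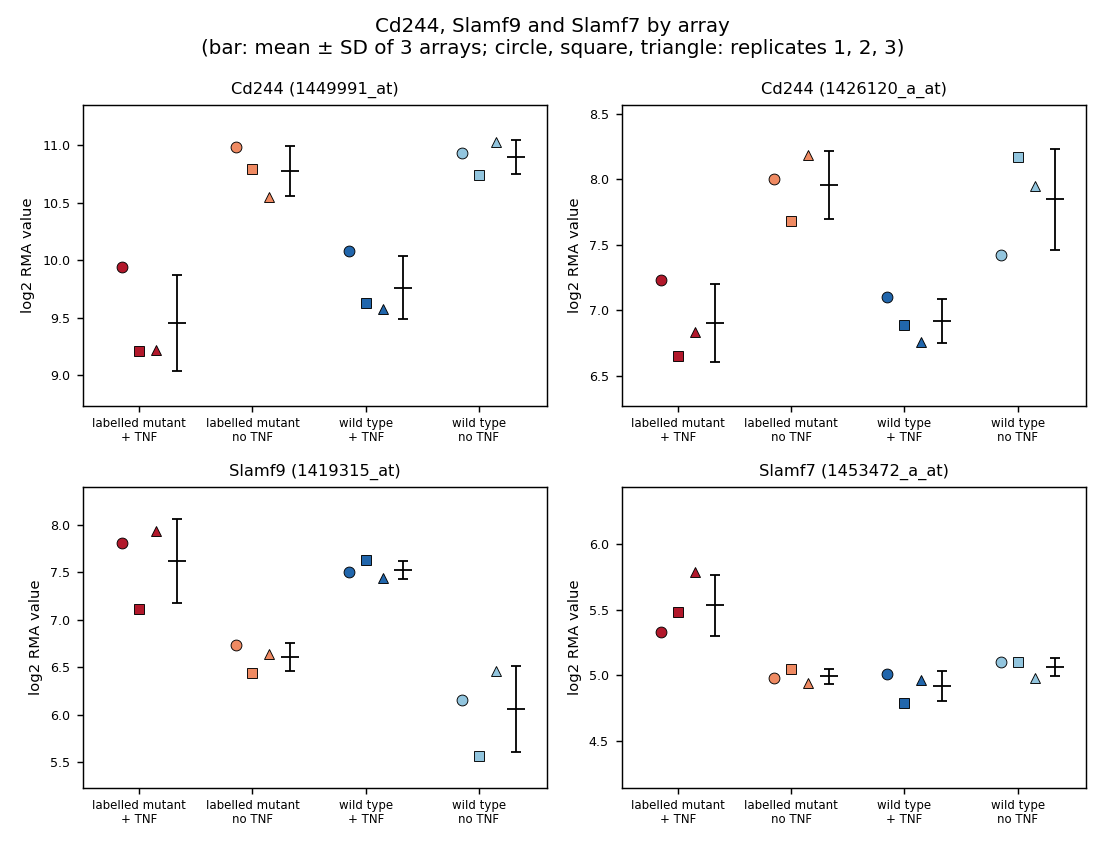
Log2 RMA value of each array for both Cd244 probe sets, Slamf9 and Slamf7, by group, with the mean ± SD of 3 arrays beside the points and each replicate number drawn with its own symbol. The treated Cd244 arrays lie below the untreated ones (at most 10.08 against at least 10.55 for 1449991_at), and the treated Slamf9 arrays above them (at least 7.11 against at most 6.73).

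Within each genotype 3 of 14 member probe sets passed for TNF. On the arrays labelled mutant, where 2.09% of all probe sets passed, they were 1 higher (Slamf7, against 1.25% of all probe sets) and 2 lower (Cd244, against 0.846%). In wild type, where 2.58% passed, they were 1 higher (Slamf9, against 1.5%) and 2 lower (Cd244, against 1.07%). The treated and untreated arrays did not overlap for 4 member probe sets in each genotype, against 21.5% of all probe sets for the arrays labelled mutant and 18.4% for wild type.

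The promoter sequences of the 3 genes with a call are shown to place the transcripts on the genome and to give the letters before their starts. Each is the 250 bases before the RefSeq start of the gene in build GRCm38.p6, written 5′ to 3′ on the strand of the gene. Cd244 lies at chr1:171558943-171559192 on the plus strand, Slamf9 at chr1:172475110-172475359 on the plus strand and Slamf7 at chr1:171649000-171649249 on the minus strand. Capitals mark matches to any of 4 motifs searched on both strands, the NF-kB motif (GGG and CC with 5 bases of any kind between them), TGANTCA (AP-1), GAGGAA (PU.1) and TGTGGT (RUNX).
Cd244: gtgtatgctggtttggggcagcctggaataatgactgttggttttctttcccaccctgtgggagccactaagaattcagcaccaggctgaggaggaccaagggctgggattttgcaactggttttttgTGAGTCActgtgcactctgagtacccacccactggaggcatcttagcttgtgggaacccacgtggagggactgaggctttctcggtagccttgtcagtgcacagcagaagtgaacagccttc
Slamf9: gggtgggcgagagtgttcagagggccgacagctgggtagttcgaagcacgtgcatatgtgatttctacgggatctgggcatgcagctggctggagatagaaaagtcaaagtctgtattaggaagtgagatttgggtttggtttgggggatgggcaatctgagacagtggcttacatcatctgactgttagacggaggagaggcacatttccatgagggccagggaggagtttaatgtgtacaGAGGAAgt
Slamf7: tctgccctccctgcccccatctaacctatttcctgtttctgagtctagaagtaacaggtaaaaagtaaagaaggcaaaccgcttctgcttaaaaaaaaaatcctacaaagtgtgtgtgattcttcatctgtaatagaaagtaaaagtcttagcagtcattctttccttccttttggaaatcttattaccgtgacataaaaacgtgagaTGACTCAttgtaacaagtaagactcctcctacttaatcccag
Cd244 held 1 AP-1 match, whose first base lies 122 bases before the gene start, and Slamf7 held 1 at 42 bases. Slamf9 held 1 GAGGAA match, 8 bases before the start. No match overlapped another in these sequences, and none was to the NF-kB letters. Of 32851 mouse promoter windows of the same length, 6.75% held TGANTCA, 23.3% held GAGGAA, 45.8% held the NF-kB letters and 14% held TGTGGT. Among the other members with a sequence in the table, Slamf6 held 1 NF-kB match, Cd84 held 1 NF-kB, 1 AP-1 and 1 RUNX match, Cd48 held 1 RUNX match, and Slamf1 held none. The motifs were chosen after the expression values were seen, and a match is a description of the letters.

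Cd48 and Slamf1, the pair that defines stem cells within KSL by surface staining, did not pass for TNF. Cd48 (1427301_at) read 12.48, 12.45 and 12.59 with TNF and 12.45, 12.50 and 12.80 without TNF on the arrays labelled mutant. The wild-type arrays read 11.88, 12.40 and 12.13 with TNF and 12.06, 12.64 and 12.50 without TNF. Every array read above its own upper quartile of all probe sets, which was between 9.11 and 9.14, and treated and untreated arrays overlapped in both genotypes. The mean TNF difference was -0.17 (SE 0.12, 95% interval -0.44 to 0.10, limma adjusted p = 0.466), so a change of 2-fold in the averaged Cd48 signal lies outside this interval.

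Slamf1 encodes CD150. Its probe sets 1425569_a_at and 1425571_at were below the lower quartile of the array (4.11 to 4.18) on all 12 arrays, and 1425570_at was below it on 11. The 3 probe sets ranged from 2.99 to 4.51 over all arrays. The highest value, 4.51, was that of 1425570_at on untreated wild-type replicate 3, and for that probe set the treated wild-type arrays read 3.54, 3.37 and 3.49. The mean TNF differences of the 3 probe sets were 0.01, -0.13 and -0.09 (limma adjusted p from 0.636 to 0.973). RMA compresses changes this close to the floor, so a change of Slamf1 was not measurable here.

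Cd84 and Ly9 encode receptors that bind themselves. The brighter Cd84 probe set (1422875_at) read 9.12, 8.96 and 9.50 with TNF and 9.11, 9.56 and 9.61 without TNF on the arrays labelled mutant, and 9.38, 9.17 and 9.59 with TNF and 9.53, 9.15 and 9.33 without TNF in wild type. The groups overlapped, and the mean TNF difference was -0.09 (95% interval -0.38 to 0.19, limma adjusted p = 0.729). The dimmer Cd84 probe set (1446505_at, 5.07 to 5.96 over all arrays) had a mean difference of 0.18 (adjusted p = 0.537).

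Ly9 (1449156_at) read 8.87, 8.89 and 9.14 with TNF and 8.96, 9.24 and 9.10 without TNF on the arrays labelled mutant. The wild-type arrays read 8.03, 8.83 and 8.62 with TNF and 9.16, 9.02 and 9.12 without TNF. The 3 treated wild-type arrays were the lowest of the 12, and treated replicate 1 was the lowest of these. The log2 difference was -0.13 on the arrays labelled mutant and -0.61 in wild type (SE 0.18 each), and neither passed (limma adjusted p = 0.827 and 0.115). The mean was -0.37 (adjusted p = 0.108), and it passed without treated wild-type replicate 2 (-0.46, adjusted p = 0.0418).

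Slamf6 encodes Ly108, a receptor that binds itself and is known mainly from T, B and natural killer cells. Its brightest probe set (1425086_a_at) read 6.33, 5.46 and 7.07 with TNF and 5.44, 5.53 and 5.52 without TNF on the arrays labelled mutant, and 5.45, 5.55 and 5.36 with TNF and 5.44, 5.30 and 5.36 without TNF in wild type. Treated mutant-labelled replicates 1 and 3 stood above the other 10 arrays, which ranged from 5.30 to 5.55. The probe set 1420659_at was instead highest on treated mutant-labelled replicates 2 and 3 (4.69 and 4.63, against 3.30 on replicate 1), and 1457773_at stayed between 4.32 and 4.74 on all arrays. The values of 1420659_at were below the lower quartile on 10 of the 12 arrays, where RMA compresses changes, so the sizes of its differences are not exact. On the arrays labelled mutant the TNF differences of 1425086_a_at and 1420659_at were each 0.79 (SE 0.29 and 0.34) and did not pass (limma adjusted p = 0.264 and 0.353). Without treated mutant-labelled replicate 2 the first was 1.20 (adjusted p = 0.0109), and without replicate 1 the other was 1.24 (adjusted p = 0.0317). Without replicate 2 the mean over both genotypes for 1425086_a_at also passed (0.65, adjusted p = 0.0127). These 2 probe sets were both high on treated mutant-labelled replicate 3 and differed on replicates 1 and 2.

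**Figure D2:**
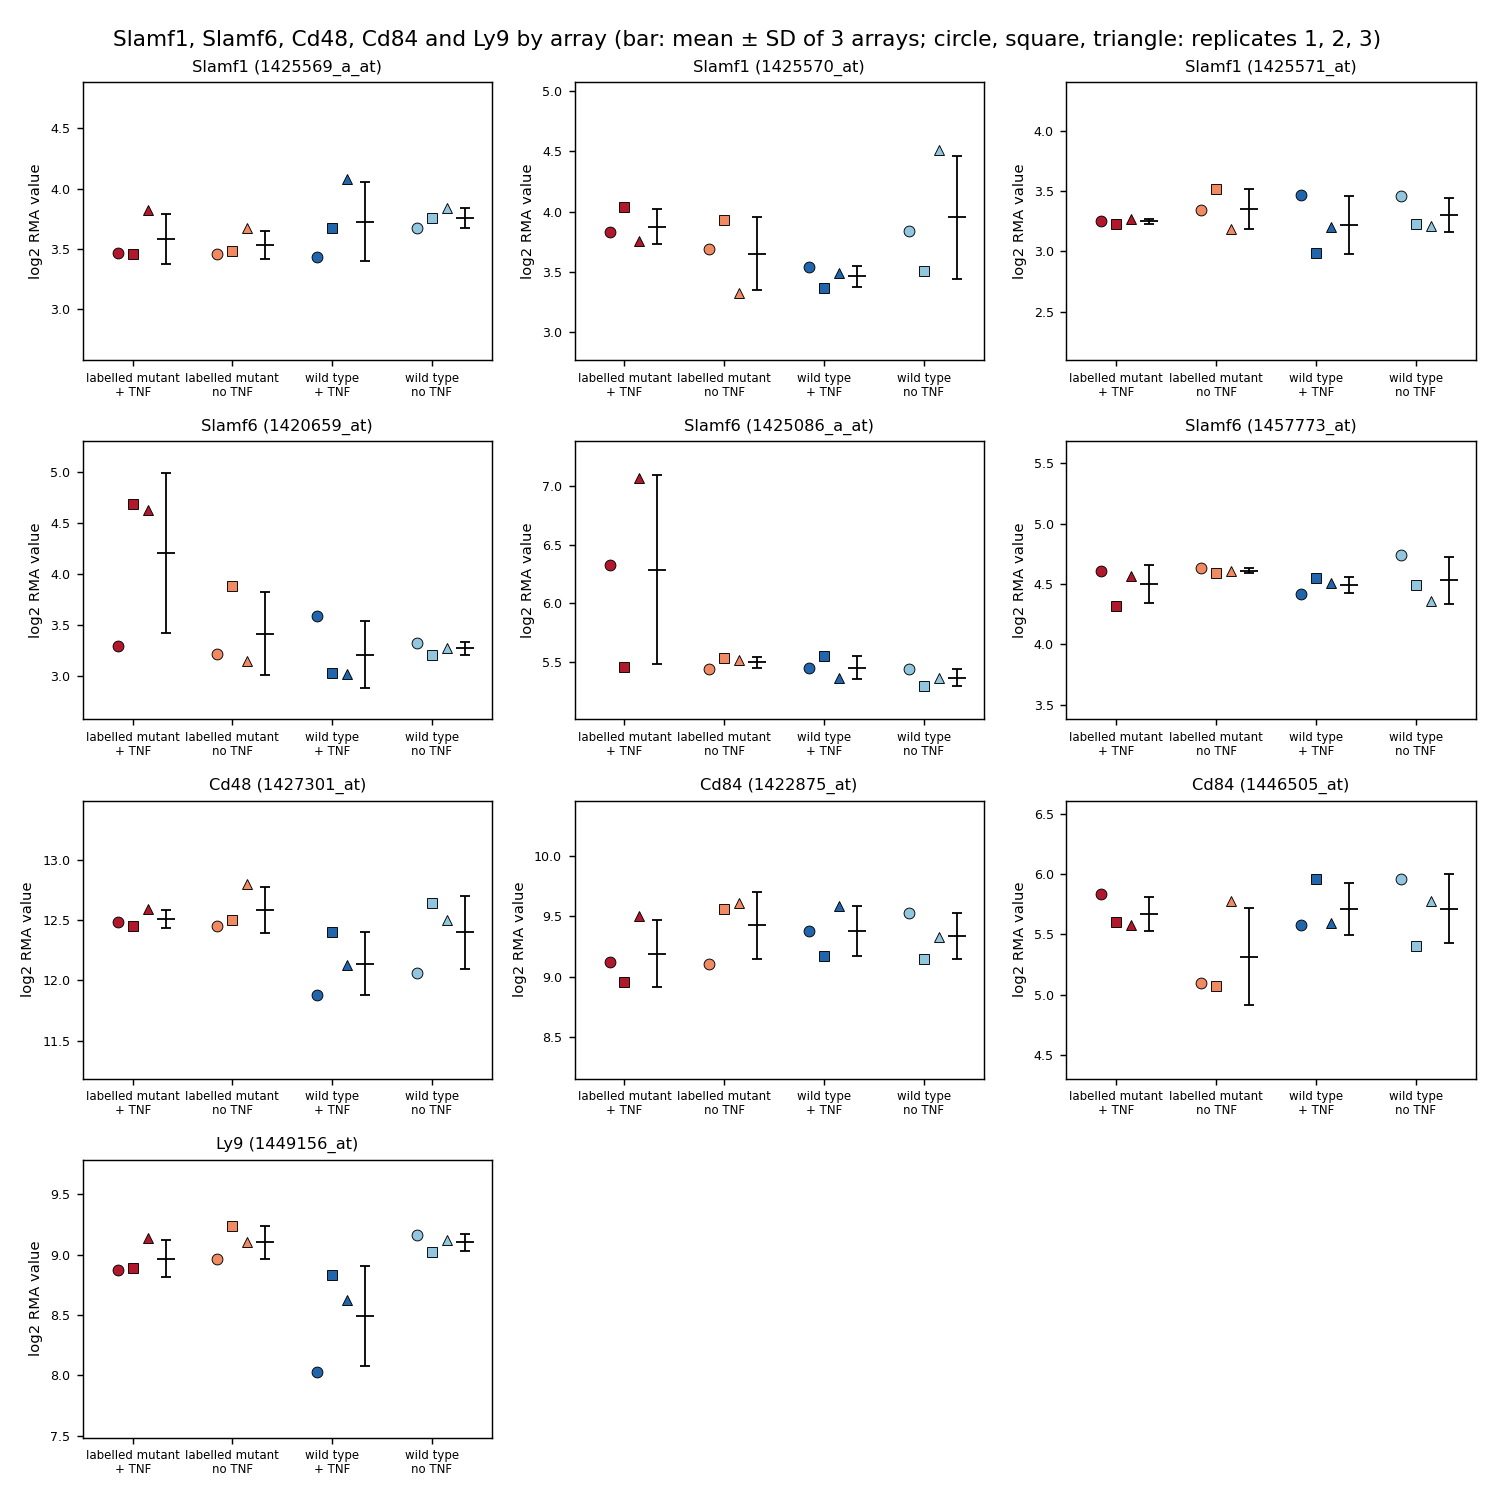
Log2 RMA value of each array for the probe sets of Slamf1, Slamf6, Cd48, Cd84 and Ly9, by group, with the mean ± SD of 3 arrays beside the points; each panel has its own axis. Slamf1 stays between 2.99 and 4.51, Cd48 between 11.88 and 12.80, and Slamf6 1425086_a_at is above 6 only on treated mutant-labelled replicates 1 and 3.

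**Figure D3:**
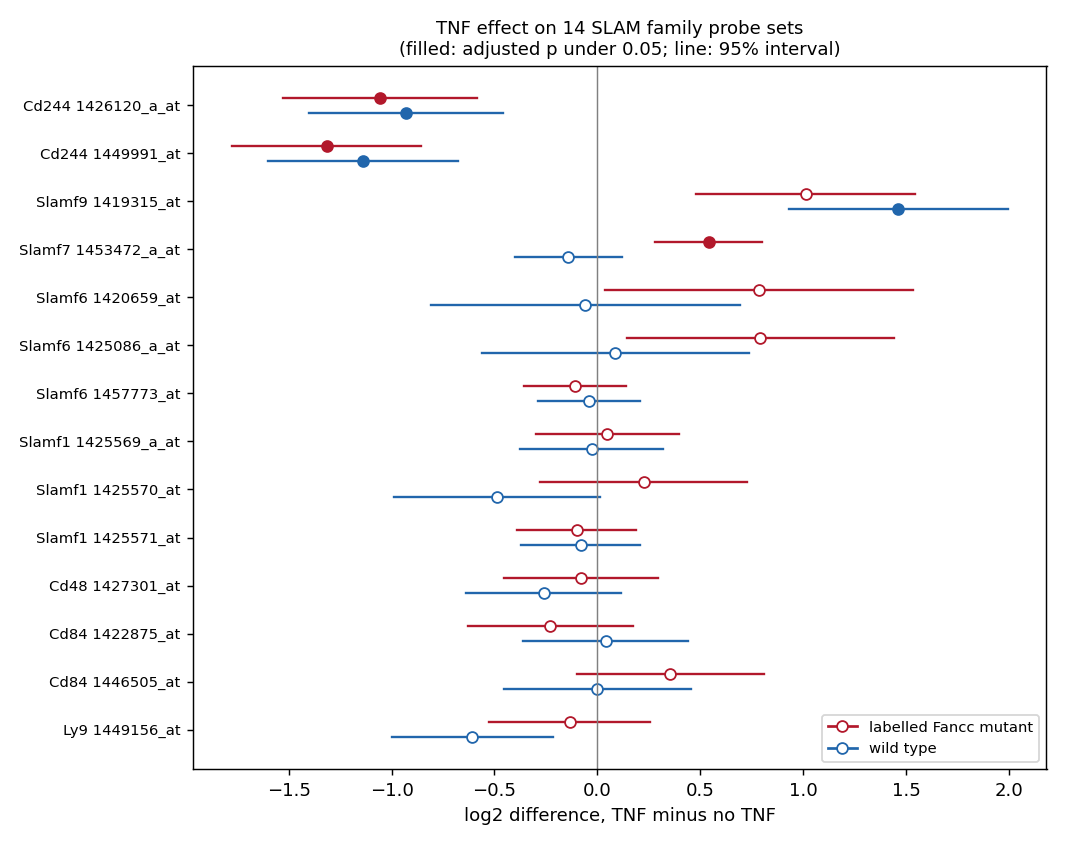
Log2 difference between treated and untreated arrays for each of the 14 probe sets on the arrays labelled mutant and in wild type, with its 95% interval; filled points passed at an adjusted p under 0.05 over all probe sets. Both Cd244 probe sets lie between -1.32 and -0.93, and Slamf9 lies at 1.01 and 1.46.

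None of the 14 member probe sets passed for genotype in limma, where 0.00666% of all probe sets passed with TNF, all of them higher. Without TNF 0.00666% passed (0.00444% higher and 0.00222% lower), and for the mean over both treatments 0.0266% passed (0.0133% higher and 0.0133% lower). At an unadjusted p under 0.05 there were 4 member probe sets with TNF, 1 without TNF and 4 for the mean, against 4.96%, 3.88% and 6.3% of all probe sets at the same threshold. With TNF these were Slamf7, Ly9 and the Slamf6 probe sets 1425086_a_at and 1420659_at, and for the mean they were Slamf7, Cd48 and the same Slamf6 probe sets. Slamf7 was higher on the arrays labelled mutant by 0.61 (SE 0.12, 95% interval 0.35 to 0.87, limma adjusted p = 0.294), with no overlap between the treated groups. Slamf6 was higher by 0.83 for 1425086_a_at and 0.99 for 1420659_at (adjusted p = 0.914 and 0.899), and Ly9 by 0.48 (adjusted p = 0.929). Without TNF it was Slamf9, higher by 0.54 on the arrays labelled mutant (95% interval 0.01 to 1.07, adjusted p = 1), with overlapping arrays. Treated groups did not overlap for 4 member probe sets (Slamf7, Cd48, Ly9 and Slamf1 1425570_at), against 10.2% of all probe sets, and untreated groups for 1 (Slamf1 1425569_a_at), against 8.06%.

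Cd48 was higher on the treated arrays labelled mutant by 0.37 (95% interval -0.01 to 0.74), and Cd244 1449991_at lower by 0.30 (95% interval -0.77 to 0.16). For Cd244 the genotype differences without TNF were 0.11 and -0.13, with intervals that reached from -0.59 to 0.58.

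**Figure D4:**
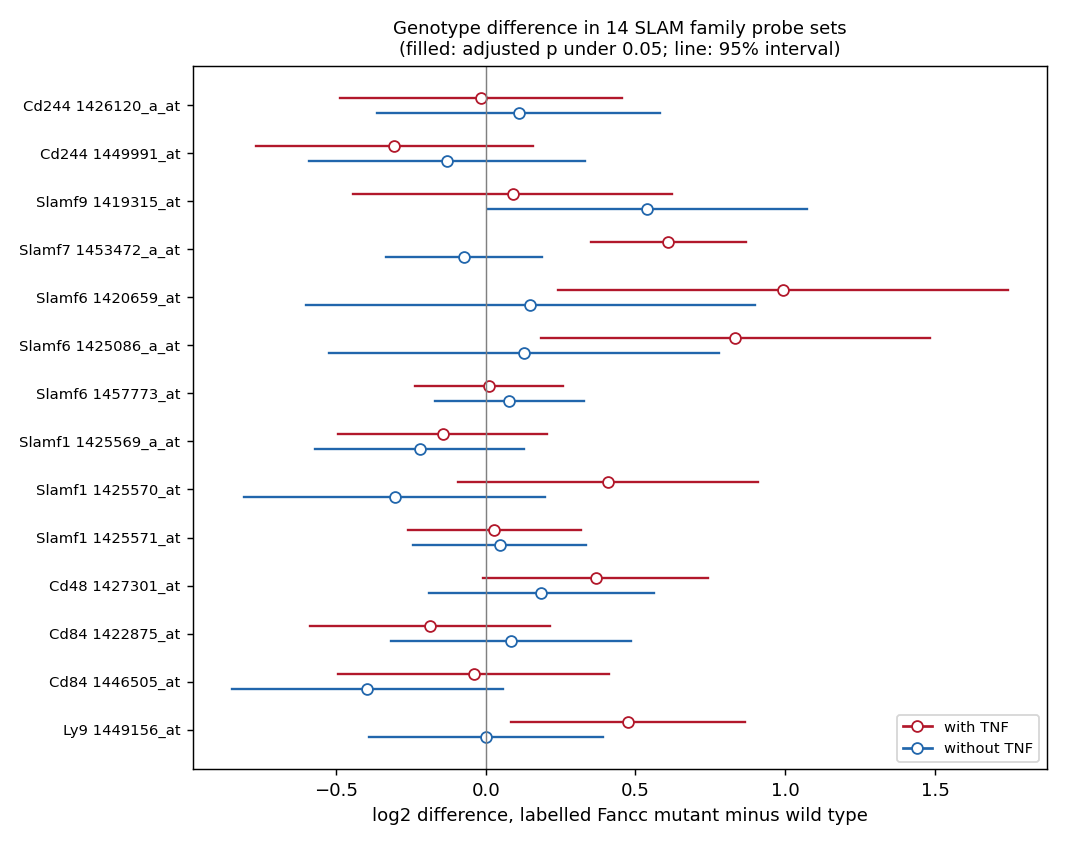
Log2 difference between arrays labelled Fancc mutant and wild-type arrays for each of the 14 probe sets, with TNF and without it, with its 95% interval. No point is filled, since none passed over all probe sets, and the intervals of Slamf7 (0.35 to 0.87), Ly9 and 2 Slamf6 probe sets lie above 0 with TNF.

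No dependence of the TNF effect on genotype passed the test. None of 14 member probe sets and 0% of all 45037 passed for the difference of the TNF effects in limma, and 2 members had an unadjusted p under 0.05, against 2.86% of all probe sets. These were Slamf7 and Slamf1 1425570_at, the second of which was near the floor. For Cd244 the difference was -0.18 (95% interval -0.83 to 0.48) and -0.13 (-0.79 to 0.54) at its 2 probe sets, and for Slamf9 it was -0.45 (-1.20 to 0.30). The intervals for Slamf9 and Cd244 hold differences as large as 1.20 and 0.83 on the log2 scale, so equal effects were not shown.

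Genes of the SLAM signalling pathway were read through 1 probe set each, the one with the highest mean. Of 15 measured adaptors and effectors, 3 rose and none fell with TNF over both genotypes, where 3.8% of all probe sets rose, and 6 had an unadjusted p under 0.05, against 21.5% of all probe sets. Fyn, the Src-family kinase that SAP recruits, rose by 0.54 (SE 0.09, limma adjusted p = 0.00315). It read 11.73, 12.01 and 11.88 with TNF and 11.24, 11.29 and 11.13 without TNF on the arrays labelled mutant, and 11.48, 11.92 and 11.76 with TNF and 11.19, 11.30 and 11.37 without TNF in wild type. No treated Fyn array overlapped the untreated ones. Plcg1, a phospholipase C, rose by 0.55 (adjusted p = 0.00498) and the kinase Fgr by 0.76 (adjusted p = 0.0483). Fyn, Plcg1 and Fgr did not pass with the sex-linked covariates (adjusted p = 0.0503, 0.0587 and 0.321), nor did Plcg1 as the mean of its probe sets (0.21, adjusted p = 0.118). Fgr failed under 13 of 22 alternatives, among them the omission of any single array but untreated wild-type replicates 1 and 2 (adjusted p from 0.0583 to 0.0999). Sh2d1a, which encodes SAP itself, read 4.78 to 4.86 on all 12 arrays and did not pass (-0.02, adjusted p = 0.827). The phosphatase genes Ptpn6 (0.41, adjusted p = 0.0739), Ptpn11 (-0.09) and Inpp5d (-0.17) did not pass. The median over the 15 was 0.03.

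Of 5 measured relatives and ligands outside the member list, 1 rose with TNF over both genotypes, where 3.8% of all probe sets rose. Slamf8, a family member without a SAP-binding motif whose gene follows Slamf9 in the chromosome 1 cluster, read 6.37, 4.38 and 7.23 with TNF and 3.49, 3.28 and 2.97 without TNF on the arrays labelled mutant. The wild-type arrays read 4.91, 5.22 and 5.64 with TNF and 3.32, 3.04 and 3.04 without TNF. All treated arrays were above all untreated ones, and treated mutant-labelled replicates 1 and 3 were the highest. The untreated arrays were all below their lower quartile (4.11 to 4.18), where RMA compresses changes, so the size of the difference may be understated. The mean TNF difference was 2.44 (SE 0.39, limma adjusted p = 0.00342), and it passed under all 21 alternatives that gave a value. Within a genotype it was 2.75 on the arrays labelled mutant (adjusted p = 0.0284) and 2.12 in wild type (adjusted p = 0.0754), and the first failed under 7 of 22 alternatives, including omission of any untreated mutant-labelled array and of treated mutant-labelled replicates 1 and 3, one at a time (adjusted p from 0.0657 to 0.111). Cd2, which encodes the other receptor for CD48 in mice, read between 3.88 and 4.67 and did not pass (-0.02, adjusted p = 0.945). Btla, Havcr2 and Cd226 did not pass.

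**Figure D5:**
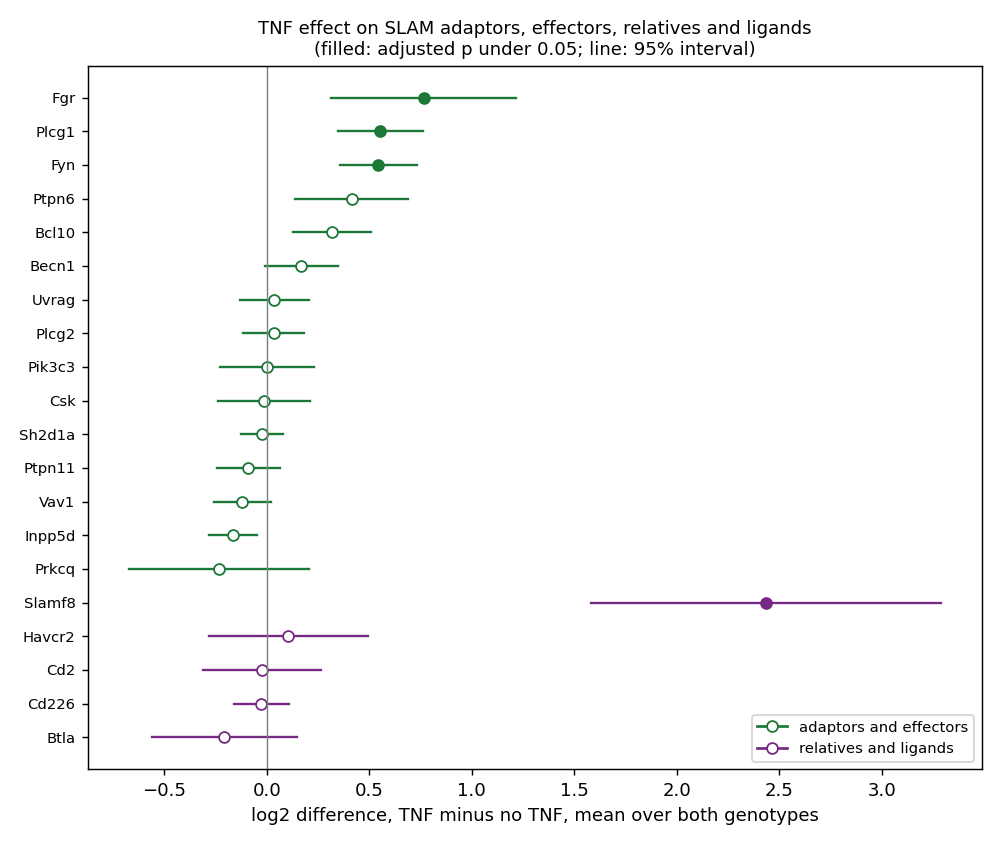
Mean TNF effect over both genotypes (log2 difference, TNF minus no TNF) with its 95% interval for 15 adaptors and effectors and 5 relatives and ligands. Filled points passed at an adjusted p under 0.05 over all probe sets: Fgr (0.76), Plcg1 (0.55), Fyn (0.54) and Slamf8 (2.44).

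Markers of the cells themselves were read beside the receptors. Over all probe sets 3.8% rose and 3.61% fell with TNF over both genotypes, the shares to set beside each marker count. Of 14 measured stem and progenitor surface markers, 1 rose and 2 fell with TNF over both genotypes. Procr, the endothelial protein C receptor found on stem cells, rose by 1.48 (SE 0.28, limma adjusted p = 0.00919), the Fc receptor gene Fcgr3 fell by 2.42 (adjusted p = 0.00147) and Cd93 fell by 0.54 (adjusted p = 0.00038). Kit (0.06), Cd34 (0.05) and Flt3 (0.21) did not pass and read at least 9.95, 12.81 and 11.44 on every array. Of 12 stem cell transcription factors 1 fell, Gfi1 (-1.18).

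Of 11 granulocyte markers, 9 fell with TNF over both genotypes, most of all Mmp8 (-4.92), Elane (-3.54), Ngp (-2.57) and Cxcr2 (-2.53). Csf3r read higher with TNF and did not pass. Its group means were 9.54 treated and 9.21 untreated on the arrays labelled mutant, and 9.92 and 9.53 in wild type. The list's mean log2 level ran from 7.80 to 8.87 on the treated and 10.23 to 10.62 on the untreated arrays labelled mutant, against 6.90 to 7.99 and 9.78 to 10.16 in wild type. Of 7 mast cell and basophil markers 2 fell, Mcpt8 (-1.82) and Hdc (-1.78), with mean levels of 6.39 to 7.54 treated and 7.42 to 7.91 untreated on the arrays labelled mutant, against 6.41 to 7.53 and 7.82 to 8.11 in wild type. Of 11 monocyte, macrophage and dendritic markers 1 rose, Cx3cr1 (2.02), and 3 fell, Ccr2 (-1.76), Fcgr1 (-1.62) and Irf8 (-1.57), with mean levels of 8.53 to 9.56 treated and 8.73 to 9.26 untreated on the arrays labelled mutant, against 8.41 to 8.65 and 8.60 to 9.05 in wild type. On treated mutant-labelled replicates 1, 2 and 3 that monocyte mean was 9.06, 8.53 and 9.56, the granulocyte mean 8.63, 7.80 and 8.87, and the mast cell mean 7.38, 6.39 and 7.54. Slamf9, Slamf8, Cd48, Cd84 1422875_at, Slamf6 1425086_a_at and Slamf1 1425569_a_at and 1425571_at were likewise lowest on replicate 2 and highest on replicate 3. The other member probe sets had other orders. Slamf7, Ly9 and Slamf6 1420659_at were lowest on replicate 1. Both Cd244 probe sets, Cd84 1446505_at and Slamf6 1457773_at were highest on replicate 1, and Slamf1 1425570_at on replicate 2. Some of these orders rest on small gaps, for Slamf1 near the floor. Replicates 1, 2 and 3 read 3.25, 3.23 and 3.27 for Slamf1 1425571_at and 3.47, 3.46 and 3.82 for 1425569_a_at. The share of all probe sets with each order was not counted. Whether these orders are related to the marker means was not tested. Of 9 T and natural killer cell markers 2 rose, Cd5 (2.03) and Klrd1 (1.73). Only Cd3e and Ncr1 of the 9 were below the lower quartile on all 12 arrays. The T and natural killer mean ran from 5.16 to 5.43 treated and 4.64 to 4.93 untreated on the arrays labelled mutant, against 4.83 to 5.28 and 4.77 to 4.88 in wild type. Of 7 megakaryocyte markers 1 rose, Itgb3 (1.45), and 2 fell, Gp1bb (-0.46) and Gp9 (-0.41), and of 6 erythroid markers 2 fell, Klf1 (-0.65) and Tfrc (-0.23). The calls of Gp9, Tfrc and the granulocyte marker Mpo (-0.82) depended on single arrays. Mpo passed without treated wild-type replicate 1 or treated mutant-labelled replicate 1 or 2 and failed without any other array (adjusted p from 0.0658 to 0.107). Gp9 passed without untreated wild-type replicate 1, treated wild-type replicate 2 or treated mutant-labelled replicate 2 and failed without any other array (adjusted p from 0.0597 to 0.0942). Tfrc passed without untreated wild-type replicate 1, untreated mutant-labelled replicate 3 or treated wild-type replicate 1 and failed without any other (from 0.0548 to 0.0779). With the sex-linked covariates the calls of Camp, Mpo, Mcpt8, Gp1bb, Gp9, Klf1 and Tfrc were lost (adjusted p from 0.0534 to 0.239). None of 7 B cell markers passed in limma. At an unadjusted p under 0.05 there were 2, Cd79a (-0.40) and Vpreb1 (-0.77), against 21.5% of all probe sets. The part of these markers in the lower Cd244 and higher Slamf9 was not tested.

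The receptor genes lie together on mouse chromosome 1, in the order Cd244, Ly9, Slamf7, Cd48, Slamf1, Cd84, Slamf6, Slamf9. Cd244 and Slamf9 are thus the first and last of the 8. Between them lie 28 other annotated genes, 13 of them measured. Of the 13, 2 rose and 1 fell with TNF over both genotypes, where 3.8% of all probe sets rose and 3.61% fell. They were Vangl2 (0.84, limma adjusted p = 0.000139), Pea15a (0.73, adjusted p = 0.00585) and Igsf8 (-0.78, adjusted p = 0.00311). With the sex-linked covariates Pea15a did not pass (adjusted p = 0.0776). None of the 13 passed for genotype.

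The named genes with the profile closest to Cd244 1449991_at over the 12 arrays, each centred on its own mean, were Pim2, Itgb5 and Emilin2. Their root mean square differences from Cd244 were 0.23, 0.24 and 0.25 on the log2 scale, over which Cd244 itself spanned 1.82. Their TNF differences were -1.06, -1.71 and -1.24 on the arrays labelled mutant and -1.25, -1.42 and -1.10 in wild type. Those closest to Slamf9, which spanned 2.36, were Lpcat2, Slc6a12 and Bach2, at 0.29, 0.31 and 0.31. Their TNF differences were 1.59, 0.82 and 1.10 on the arrays labelled mutant and 1.27, 0.85 and 1.20 in wild type. These genes were picked for closeness over the same 12 arrays, so TNF differences like those of Cd244 and Slamf9 follow from the choice.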

How the data were processed

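The authors deposited 1 log2 value per probe set and array, for 12 Affymetrix mouse arrays. Per the submitters' processing notes these came from RMA, a robust multi-array summary of probe intensities, with the version not given in the sources used. Their range showed the log base. RMA corrects background and equalises array distributions, so a shift of all genes could not be seen. Per the labels, 5 to 15 ng of RNA was amplified for each array.

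The limma package (version 3.58.1, R 4.3.3) was run on all 45037 probe sets, without 64 control probe sets, with 1 mean per group over all 12 arrays, empirical Bayes moderation, 2-sided tests and Benjamini-Hochberg adjustment over all probe sets; 7 contrasts were tested at an adjusted p under 0.05. Intervals are 95% intervals of a single probe set, unadjusted. The platform annotation gave 1 symbol to 34945 probe sets, several to 932, and did not list 9160. Further genes came from 11 lists with 120 genes, 104 measured, each through its brightest probe set. All members were named whatever their values. From the lists, the text names up to 4 passing genes and further genes that were picked after their values were seen. The latter are Sh2d1a, Ptpn6, Ptpn11, Inpp5d, Cd2, Btla, Havcr2, Cd226, Camp, Mpo, Csf3r, Kit, Cd34 and Flt3. Members and lists were chosen with earlier results of these data known. Promoters and gene order came from RefSeq (GRCm38.p6), where 7 of the 8 members had a promoter. The fit was tested on simulated data. The alternatives were other summaries per gene, a low-value filter, other scalings, moderation and weights, smaller fits, a replicate block, sex-linked covariates, a minimum change of 2-fold and the omission of each array.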

Additional observations from a re-analysis of the deposited data

How the results depend on the processing

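No call reversed its sign under any of the 23 alternatives, and the counts of member probe sets passing for the 4 comparisons that involve genotype were 0 in all of them. For TNF in wild type the count of 3 was 0 with Xist and Eif2s3y levels as covariates, and ran from 1 to 3 over the omissions of single arrays, with 1 without untreated replicate 3 or treated replicate 2 or 3. For TNF on the arrays labelled mutant the count of 3 was 0 with those covariates, 1 when only the groups compared were fitted, and 1 to 4 over the omissions, with 1 without untreated replicate 1 or 3 or treated replicate 3. For the mean over both genotypes it ran from 3 to 4 over the omissions and from 2 to 3 otherwise. With the replicate number as a block, the counts were 2 in wild type, 2 on the arrays labelled mutant and 3 for the mean. The block ended the calls of Cd244 1426120_a_at on the arrays labelled mutant and in wild type (adjusted p = 0.0626 and 0.0838) and of Slamf7 on the arrays labelled mutant (0.0761), and Slamf9 passed on the arrays labelled mutant (0.0369). Among the other genes named it ended the mean TNF call of Tfrc (0.0594), and Ptpn6 (0.0456) and Csf3r (0.0101) passed as higher. Deviations from the group means correlated above 0.1 for 7 of 18 pairs of arrays with the same number (from -0.133 to 0.316). For the 36 pairs with different numbers the correlations ran from -0.372 to 0.183. These correlations do not settle whether the numbers pair the samples. The sex-linked transcripts show that same-numbered arrays were not all a single pool of cells divided between TNF and no TNF. For Xist, treated and untreated arrays read 12.52 and 5.47 on wild-type replicate 1 and 12.47 and 5.06 on replicate 2. On mutant-labelled replicate 1 they read 12.53 and 5.12. For Eif2s3y they read 3.79 and 10.46 on wild-type replicate 3 and 10.93 and 4.16 on mutant-labelled replicate 2. Another kind of pairing is not settled. The labels state no pairing, so the main fit had no block. A low-value filter kept 6 of the 14 member probe sets, so for the rest low signal limits what could be seen. The causes of these changes were not tested. Of the 70 passing results for list and neighbouring genes, none reversed, and 226 of 1574 alternatives ended a call.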
